A study of Mus musculus with 24 samples.

Results

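Myoblasts without MuSK were compared with and without bone morphogenetic protein 4 (BMP4). The cells were MuSK-/- mouse myoblasts, grown at 33 °C in medium with 20% fetal bovine serum, chicken embryo extract and interferon-γ. The treated cultures were deprived of serum for 4 h and then given 25 ng/ml BMP4 for 8 h, and the untreated cultures received no BMP4. Whether the untreated cultures were also deprived of serum is not given in the labels, so BMP4 and serum withdrawal cannot be told apart in this contrast. Each group holds 3 arrays, labelled biological replicates 1 to 3, so the 6 arrays are 6 of the 24 in the series. The other groups used for comparison were wild-type H-2Kb-tsA58 myoblasts under the same 2 conditions, and MuSK-null myotubes. The myotubes had been kept for 3 days at 37 °C in 5% horse serum and were left untreated or given 25 ng/ml BMP4 for 8 h without serum deprivation. The wild-type line takes its name from a temperature-sensitive large T antigen that keeps cells dividing at the lower temperature, and each genotype is represented by 1 immortalised line, so a difference between genotypes is also a difference between lines.

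BMP4 is a secreted ligand that binds pairs of type I and type II serine-threonine kinase receptors. The activated receptors phosphorylate Smad1, Smad5 and Smad9, which enter the nucleus with Smad4 and switch on genes such as those for the Id proteins, inhibitors of the basic helix-loop-helix factors that drive muscle differentiation, and the inhibitory Smads, which feed back on the receptors. In myoblasts BMP is known to hold back differentiation and, given for longer, to turn cells towards bone. MuSK is the muscle-specific receptor tyrosine kinase that agrin activates through Lrp4 at the neuromuscular synapse, and it has also been described as a coreceptor for BMP.

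Values are log2 signals of Affymetrix probe sets, 1 probe set per gene, and changes are BMP4 minus untreated in log2 units with a standard error (SE). A gene was called at a Benjamini-Hochberg adjusted p under 0.05 from limma, fitted to all 24 arrays and 19938 genes. Replicates are called biological, but the labels name no separate cultures or passages, so p-values reflect only how these arrays varied, which may be technical. The median SD over genes was 0.093 among the untreated and 0.097 among the treated arrays. On the 6 arrays the 95th percentile of 1205 olfactory and vomeronasal receptor rows, taken as the background level, lay between 6.59 and 6.78. Untreated replicate 2 and treated replicate 2 of these cells deviated together with 1 array in each wild-type myoblast group, and every leading count below was also made without these 4 arrays. The myoblast marker genes Myf5, Myod1 and Cdh15 were well above background in every array (Myf5 at 12.30, 12.10 and 12.35 untreated), and Pax7 was low (Pax7 at 7.20, 7.30 and 7.22 untreated). None of the 10 endothelial and 9 immune marker genes was called, or passed an unadjusted p of 0.05 in limma, and 6 and 7 of them were at background in both groups. Other marker lists were mostly above background. Of 8 neural and Schwann markers 2 were at background in both groups, none was called and 1 was lower at an unadjusted p under 0.05 in limma. Of 11 fibroblast markers 2 were at background in both groups, and of 12 smooth muscle markers none. Musk itself read 10.93, 10.69 and 10.94 on the untreated and 11.09, 10.88 and 11.16 on the treated arrays. The labels do not say which exons the null allele lacks, so this probe set does not check the genotype. Its change of 0.19 (SE 0.072) had an adjusted p of 0.128. That p was 0.0391 without the 4 arrays and 0.0157 without treated replicate 2.

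With BMP4, 776 genes rose and 902 fell of 19938. The called share was 8.42%, with 3.89% of genes higher and 4.52% lower. Counts of list members below are to be read against these shares. Among called genes 243 rose and 317 fell by at least 0.5 log2 units, 54 rose and 43 fell by at least 1, and 4 rose and 2 fell by at least 2. The median called rise was 0.39 and the median called fall -0.41, while the median over all genes was 0.02. Of the called genes 1651 had arrays that did not overlap between the groups, against 4343 non-overlapping genes in all, 21.8% of those tested. The largest rises and falls named below were taken only from called genes without overlap. A gap between their groups was thus set by the choice and is no separate support. In 80 called genes both groups were at background. Another 30 rose from background to above it, and 35 fell from above it to background. Without the 4 arrays 756 genes rose and 831 fell. The fit on these 6 arrays alone called 505 rises and 610 falls. When every array was centred on the median of all its rows, the median gene changed by -0.03 in place of 0.02, 559 genes rose and 1089 fell, so the risen share of calls was 33.9% in place of 46.2%.

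**Figure D1:**
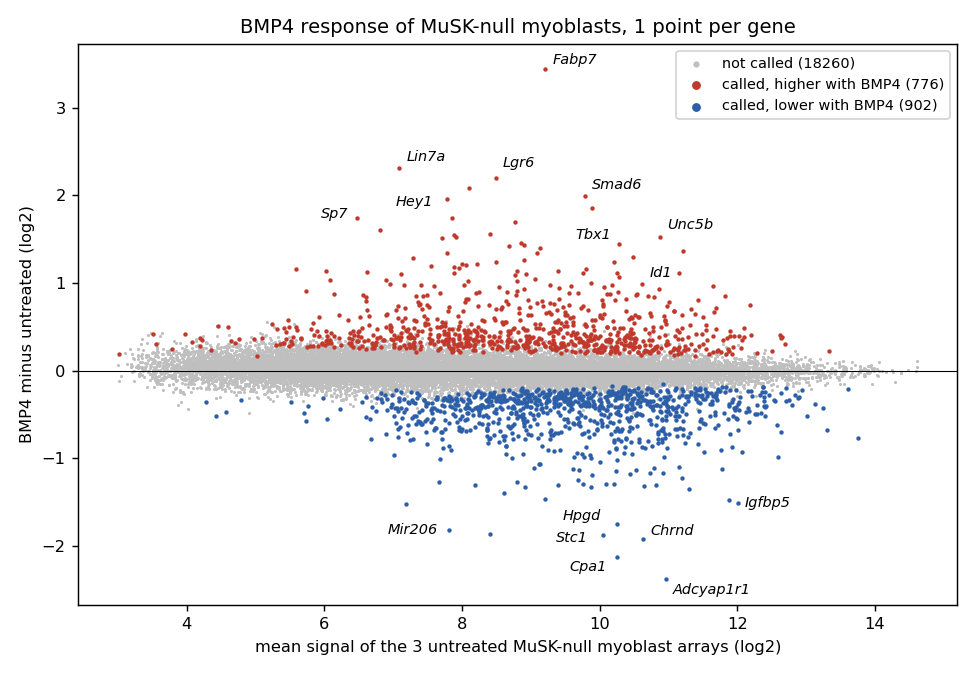
Change with BMP4 (log2, vertical) against the mean untreated signal (log2, horizontal) for 19938 genes in MuSK-null myoblasts, with 776 called rises in red, 902 called falls in blue and uncalled genes in grey. Fabp7 stands highest at 3.43 and Adcyap1r1 lowest at -2.38.

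Inhibitory Smads and other feedback genes of the pathway were among the largest rises. Of 20 Smads and intracellular feedback genes 7 rose and 1 fell, with a list median of 0.02. Smad6, an inhibitory Smad that blocks BMP receptors, read 9.88, 9.79 and 9.70 untreated and 11.90, 11.62 and 11.81 with BMP4. The change was 1.99 (SE 0.078, 3.97-fold, adjusted p = 7.45e-14). Smad7, the other inhibitory Smad, went from 9.06, 9.29 and 9.07 to 10.49, 10.63 and 10.49, a rise of 1.40 (SE 0.088, adjusted p = 9.13e-11). In both genes every treated array lay above every untreated one. Smad9, a receptor-activated Smad of the BMP branch, read 8.80, 8.66 and 8.86 and then 10.51, 10.44 and 10.46, a rise of 1.70 (SE 0.075, adjusted p = 5.57e-13). Bambi, a decoy receptor that lacks the kinase domain, read 7.91, 7.96 and 7.86 and then 9.43, 9.32 and 9.53 and rose by 1.52 (SE 0.074). The replicates of these 2 genes lay close together, and their groups were apart by 1.58 for Smad9 and 1.36 for Bambi. Skil, a corepressor of Smads, rose by 0.63 and Pmepa1, a membrane inhibitor of TGF-β signalling, by 0.40. Tgif1, another corepressor, fell by 0.29 (adjusted p = 0.00473). Smad1 and Smad5, the other receptor-activated Smads of the BMP branch, were not called. Smad1 changed by 0.16 (SE 0.12, adjusted p = 0.541) and Smad5 by -0.08 (SE 0.059, adjusted p = 0.54), and Smad3, of the TGF-β branch, by -0.10 (adjusted p = 0.414).

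The promoters of the risen genes were searched for the palindrome GGCGCC, a word that BMP-activated Smads are known to bind, in the 250 bases before the annotated start on both strands. The longer word TGGCGCC contains it. RefSeq's promoter table (GRCm38.p6) held 19177 promoters of 15614 genes tested. GGCGCC was in 13.1% of all these promoters, in 21.5% of 795 promoters of risen genes, in 15.2% of 986 promoters of fallen genes and in 32.6% of the 46 promoters of genes that rose by at least 1 log2 unit. The median GC content was 56.8% over all promoters, 61.2% for risen, 60.0% for fallen and 65.4% for the strongest rises, and the part of GC content in these shares was not tested. TGGCGCC was in 4.35% of all promoters, 7.17% of the risen and 4.56% of the fallen. CAGACA, a word of the kind that Smad3 and Smad4 bind, was in 14.9% of all, 14.0% of the risen and 15.7% of the fallen. A match describes the letters and does not show a bound site. The promoter of Smad9 is printed because this gene is among the largest rises and holds the longer word. Lin7a, the second largest rise, has 2 annotated promoters, of which the upstream one holds the longer word. Dlx2 and Id2, both BMP target factors described next, each hold the palindrome without the preceding T. Capitals mark the word found, and each sequence runs 5′ to 3′ up to the base before the start.

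Smad9 (chr3:54755332-54755581, plus strand): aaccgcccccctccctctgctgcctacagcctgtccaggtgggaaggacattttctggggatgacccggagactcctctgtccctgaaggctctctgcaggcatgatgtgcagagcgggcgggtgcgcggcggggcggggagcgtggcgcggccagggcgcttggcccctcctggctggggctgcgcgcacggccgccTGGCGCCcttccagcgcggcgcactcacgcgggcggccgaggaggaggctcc

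Lin7a, upstream promoter (chr10:107271581-107271830, plus strand): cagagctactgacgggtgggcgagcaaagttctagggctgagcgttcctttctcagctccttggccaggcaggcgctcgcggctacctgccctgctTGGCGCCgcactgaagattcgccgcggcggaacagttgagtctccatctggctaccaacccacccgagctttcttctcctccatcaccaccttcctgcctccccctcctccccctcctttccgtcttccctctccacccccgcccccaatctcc

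Dlx2 (chr2:71546755-71547004, minus strand): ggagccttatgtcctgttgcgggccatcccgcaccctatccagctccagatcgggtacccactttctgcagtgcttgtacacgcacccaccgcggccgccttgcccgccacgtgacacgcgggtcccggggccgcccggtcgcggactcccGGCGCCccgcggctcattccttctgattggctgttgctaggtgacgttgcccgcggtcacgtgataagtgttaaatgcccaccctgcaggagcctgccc

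Id2 (chr12:25096093-25096342, minus strand): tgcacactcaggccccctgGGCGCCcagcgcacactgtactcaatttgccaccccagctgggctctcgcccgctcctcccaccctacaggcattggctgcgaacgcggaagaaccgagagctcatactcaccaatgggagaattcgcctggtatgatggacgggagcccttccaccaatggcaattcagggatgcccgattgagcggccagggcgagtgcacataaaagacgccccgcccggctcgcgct

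The word began 51 bases before the start in Smad9, 153 in Lin7a, 99 in Dlx2 and 231 in Id2, counted from the first G of GGCGCC. The upstream 250 bases of Smad6, Fabp7, Lgr6, Unc5b, Id3 and Atoh8 held neither word.

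Most of the listed BMP target transcription factors rose, in a list written with earlier results of these data known. Of 30 measured, 20 rose, none fell (1 was lower at an unadjusted p under 0.05 in limma), and the median of the list was 0.50 against 0.02 over all genes. The 4 Id genes encode inhibitors that pair with basic helix-loop-helix factors and keep them off DNA. Id1 read 10.59, 10.71 and 10.56 untreated and 11.58, 11.60 and 11.66 with BMP4, a rise of 0.99 (SE 0.074, 1.99-fold, adjusted p = 1.25e-09). Id3 read 11.02, 10.96 and 10.97 and then 11.65, 11.83 and 11.69, a rise of 0.74 (SE 0.091). Id2 read 11.74, 11.70 and 11.64 and then 12.47, 12.30 and 12.45, a rise of 0.71 (SE 0.080). None of these 3 genes had overlapping groups, and the arrays within a group lay close together. Id4, the dimmest, went from 6.97, 7.12 and 7.15 to 7.55, 7.85 and 7.64 and rose by 0.60 (adjusted p = 0.000174).

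Larger rises came from homeobox and Notch-related factors. Hey1, a repressor that Notch and BMP both induce, read 7.91, 7.66 and 7.76 and then 9.92, 9.46 and 9.84, a rise of 1.96 (SE 0.12, adjusted p = 1.04e-10). Dlx2, a homeobox factor of craniofacial and skeletal tissue, read 9.77, 9.84 and 10.06 and then 11.88, 11.48 and 11.89, a rise of 1.86 (SE 0.11). In both genes treated replicate 2 was the lowest of the treated arrays and still stood well above every untreated one, by 1.55 for Hey1 and 1.41 for Dlx2. Its neighbour Dlx1 rose by 1.12 (SE 0.068) and Dlx5 went from background to above it, at least 1.75-fold higher. Msx2, a homeobox repressor of the limb and skull, rose by 0.97 (SE 0.12), from 7.67, 7.59 and 7.52 to 8.81, 8.17 and 8.70. Foxq1, a forkhead factor, read 8.43, 8.40 and 8.39 and then 9.88, 9.90 and 10.10, a rise of 1.56 (SE 0.082). Atoh8, a basic helix-loop-helix factor, rose by 0.90, Tbx20, a T-box factor of the heart, by 0.97, Snai1, a repressor of epithelial genes, by 0.88, Gata3 by 0.57 and Gata2 by 0.51, each with groups that did not overlap. Gata6 changed by 0.30 (SE 0.12, adjusted p = 0.148) and was not called. Tbx1, a T-box factor of the pharyngeal arches and their muscles that stands in none of the lists, read 10.10, 10.41 and 10.32 and then 11.70, 11.67 and 11.79, a rise of 1.44 (SE 0.11, adjusted p = 1.86e-09).

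**Figure D2:**
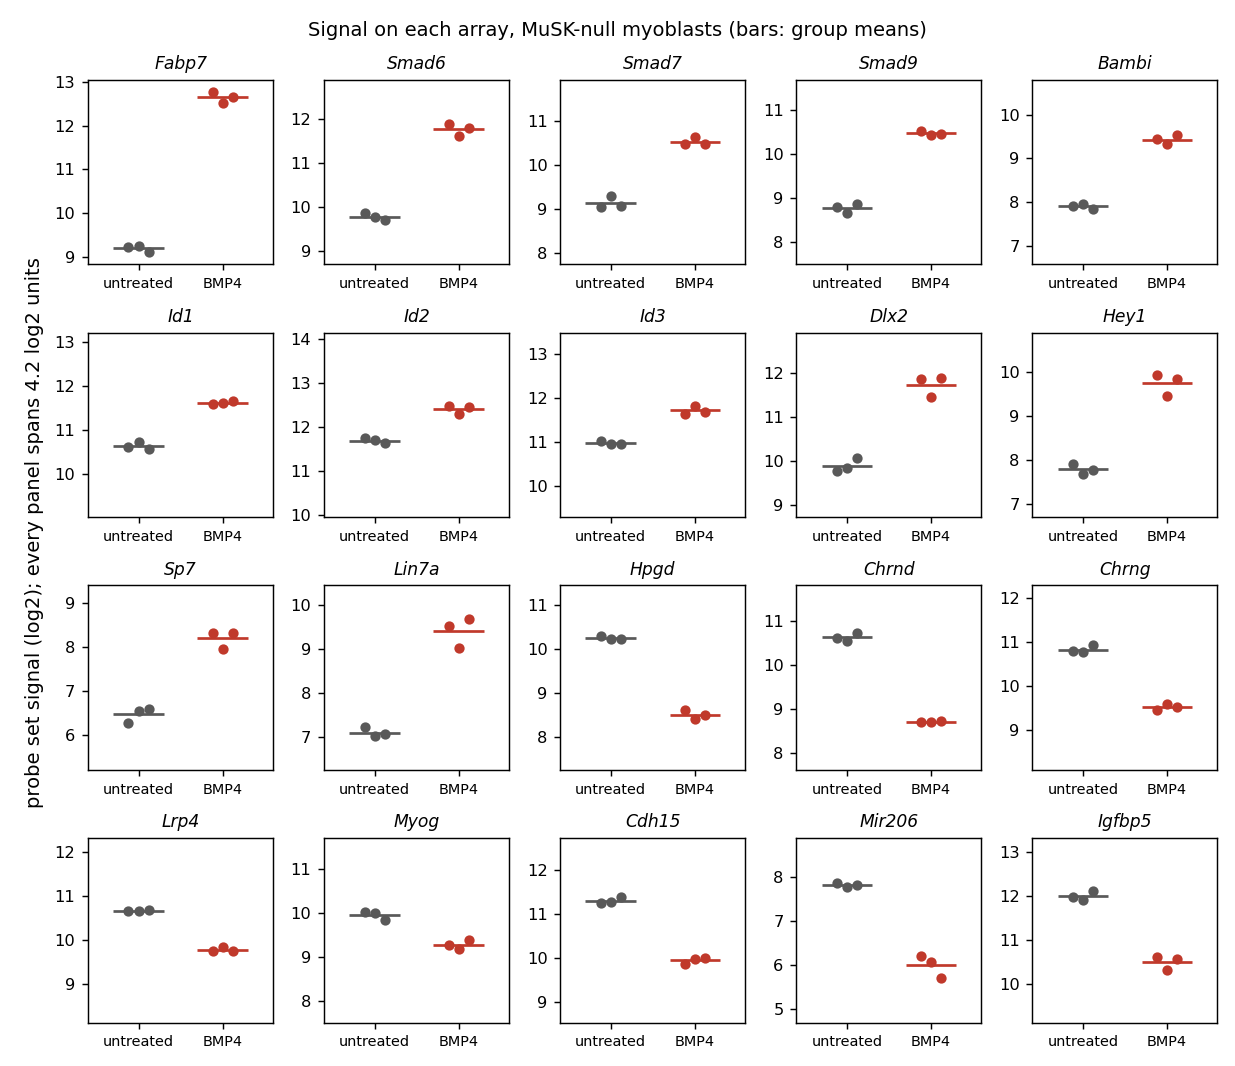
Signal of 20 genes (log2, vertical) on each of the 3 untreated arrays (grey) and the 3 BMP4 arrays (red) of MuSK-null myoblasts, with bars for the group means, every panel spanning the same range. The 12 genes of the first panels, from Fabp7 to Lin7a, are higher on every treated array, and the 8 from Hpgd to Igfbp5 are lower on every treated array.

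Among the BMP ligands themselves 1 of 18 rose and 1 fell, 5.56% each, near the 3.89% and 4.52% of all genes. Bmp5 went from 7.73, 7.47 and 7.15 to 8.04, 8.32 and 7.86, a rise of 0.62 (SE 0.12, adjusted p = 0.00117), with an adjusted p of 0.054 when fitted on the 6 arrays alone. Bmp4, high in these cells already, went from 12.49, 12.23 and 12.49 to 12.11, 11.74 and 12.11 and fell by 0.42 (SE 0.11, adjusted p = 0.019). That fall was not called without untreated replicate 1 (adjusted p = 0.0958), untreated replicate 3 (0.0938) or treated replicate 2 (0.14), nor on the 6 arrays alone (0.0901).

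Secreted antagonists rose more often than they fell. Of 18 measured, 6 rose and 2 fell, with a median of 0.07. On the 6 arrays alone 4 rose and 1 fell, and without the 4 arrays 1 fell. Fst, follistatin, which traps activins and some BMPs, read 9.07, 8.99 and 9.14 and then 10.11, 10.04 and 10.18, a rise of 1.04 (SE 0.070, adjusted p = 2.4e-10). Grem1, gremlin, rose by 0.81 (SE 0.075), from 9.99, 9.98 and 10.12 to 10.82, 10.79 and 10.89, and Crim1, a membrane protein that holds BMPs back, by 0.74 (SE 0.070). In these 3 genes the groups were apart by more than either group spread. Sostdc1 rose by 0.54 while at background in both groups. Noggin, Nog, rose by 0.31 (SE 0.084, adjusted p = 0.021), a call that was lost without the 4 arrays (adjusted p = 0.361) and on leaving out untreated replicate 2 (0.125), treated replicate 1 (0.0743) or treated replicate 2 (0.126). Chrdl1, a chordin-like antagonist, fell by 0.41 (SE 0.095).

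Of 18 receptors and coreceptors 2 rose and 5 fell, with a median of -0.08. On the 6 arrays alone 1 rose, and with a block for the 4 arrays 4 rose. The largest fall was in Hjv, hemojuvelin, a BMP coreceptor of muscle and liver, which read 10.38, 10.32 and 10.65 untreated and 9.28, 9.16 and 9.38 with BMP4 and fell by 1.18 (SE 0.071, adjusted p = 5.15e-11). Its relative Rgmb fell by 0.68 (SE 0.071), and the third member of that family, Rgma, changed by -0.13 (adjusted p = 0.516) without a call. The type I receptor Bmpr1b fell to background, at least 1.16-fold, the type I receptor Acvr1 rose by 0.33 (SE 0.055), and Bmpr1a changed by -0.06 (SE 0.058, adjusted p = 0.726). Bmpr2, the main type II receptor, changed by 0.24 (SE 0.099, adjusted p = 0.183). It passed with a block for the 4 arrays apart (adjusted p = 0.00303). In the TGF-β branch the receptors Tgfbr2 and Tgfbr3 fell by 0.56 and 0.50.

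Of 14 TGF-β, activin and myostatin ligands 5 rose, 9 were not called and none fell, also at an unadjusted p under 0.05 in limma. Tgfb1 rose by 0.49 (SE 0.074), Inhba, the βA subunit of activin, by 0.48 (SE 0.073) and Tgfb3 by 0.45 (SE 0.077). Of 22 TGF-β and matrix response genes 6 rose and 3 fell, and 1 fell on the 6 arrays alone. Ccn2, a matrix-associated growth factor also known as CTGF, read 10.27, 10.11 and 10.27 and then 11.51, 11.35 and 11.50, a rise of 1.24 (SE 0.089, adjusted p = 7.59e-10). Tenascin C, Tnc, rose by 0.62 and Tgfbi by 0.61.

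Genes of other mesenchymal fates were raised in part. Of 14 osteoblast genes 3 rose and 11 were not called. Sp7, osterix, the transcription factor that commits cells to bone, was at background on the untreated arrays (6.29, 6.55 and 6.59) and above it on all treated ones (8.33, 7.97 and 8.33). Measured against the background level the rise was at least 2.97-fold, and the fitted change was 1.74 (SE 0.14, adjusted p = 3.26e-09). Alpl, the alkaline phosphatase of bone, read 7.10, 7.07 and 7.18 and then 8.38, 8.03 and 8.24, a rise of 1.10 (SE 0.11). Among 20 chondrocyte genes 3 rose and 17 were not called. Sox9, the cartilage regulator, read 10.86, 10.82 and 10.91 and then 11.89, 11.63 and 11.85 and rose by 0.93 (SE 0.065), and Col10a1, the collagen of hypertrophic cartilage, rose by 1.02 (SE 0.12).

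Of 9 tendon genes 2 rose, 2 fell and 5 were not called. Fmod, fibromodulin, rose by 1.29 (SE 0.14), and Scx, scleraxis, the tendon factor, fell by 0.81 (SE 0.086), from 10.11, 10.35 and 10.17 to 9.37, 9.43 and 9.41. Of 20 lipid-binding and adipogenic genes 4 rose and 2 fell. Fabp7, a fatty acid binding protein best known from radial glia, had the largest rise of all genes. It read 9.24, 9.25 and 9.13 untreated and 12.76, 12.51 and 12.65 with BMP4, a change of 3.43 (SE 0.082, 10.8-fold, adjusted p = 5.66e-18). The nearest arrays of the 2 groups were 3.26 apart. Ebf1, a factor of early adipocytes, rose by 1.00, Pparg, the nuclear receptor of fat cells, by 0.80 (from 8.65, 8.60 and 8.69 to 9.49, 9.35 and 9.49) and Cebpa, its partner, by 0.55. Pnpla2, a triglyceride lipase, fell by 0.56, and Medag, named for its part in fat cell formation, fell to background, at least 1.3-fold.

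Several of the largest rises belong to signalling pathways beside BMP. Lin7a, a PDZ scaffold protein of cell polarity and synapses, read 7.22, 7.01 and 7.06 untreated and 9.51, 9.01 and 9.68 with BMP4, a change of 2.31 (SE 0.12, 4.95-fold, adjusted p = 7.31e-12). Its treated arrays spread over 0.67, and the lowest still lay 1.79 above the highest untreated one. Of 59 Wnt pathway genes 17 rose and 5 fell, with a median of 0.07. Lgr6, a receptor for R-spondins, read 8.59, 8.37 and 8.51 and then 10.76, 10.57 and 10.74, a rise of 2.20 (SE 0.089, adjusted p = 1.11e-13). Trabd2b, a membrane protease that inactivates Wnt ligands, rose by 2.08 (SE 0.16), from 8.11, 7.97 and 8.21 to 10.36, 9.81 and 10.35. The groups of both genes were far apart, by 1.98 and 1.60. The ligand Wnt4 rose by 1.22 (SE 0.076), from 8.18, 8.30 and 8.18 to 9.45, 9.43 and 9.43, and the intracellular inhibitor Nkd2 by 1.19 (SE 0.098). Apcdd1, a membrane inhibitor of Wnt signalling, fell by 0.63 (SE 0.066).

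FGF receptors changed in opposite directions. Fgfr2 read 7.80, 8.02 and 7.75 and then 9.57, 9.68 and 9.54, a rise of 1.74 (SE 0.10, adjusted p = 2.79e-11). Fgfr4, the receptor typical of myoblasts, read 9.75, 9.72 and 9.83 and then 8.43, 8.44 and 8.54 and fell by 1.30 (SE 0.082, adjusted p = 9.59e-11). Spry2, a feedback inhibitor of receptor tyrosine kinases, fell by 0.59 (SE 0.074), and the list of 33 FGF genes held 7 rises and 4 falls. Among 28 Notch pathway genes 6 rose and 5 fell. The ligand Jag1 rose by 0.86 and Lfng, a glycosyltransferase that tunes the receptors, by 0.87, while the ligand Dll1 fell by 0.96 (from 9.87, 9.89 and 9.81 to 8.99, 8.80 and 8.89), the receptor Notch3 by 0.96 and Dtx4, a ubiquitin ligase of the pathway, by 1.46 (SE 0.089).

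Axon guidance genes, which also steer motor axons and muscle precursors, showed 16 rises and 8 falls of 60. Unc5b, a netrin receptor, read 11.00, 10.73 and 10.92 and then 12.52, 12.27 and 12.44, a rise of 1.53 (SE 0.11). Sema6a, a transmembrane semaphorin, read 9.97, 9.65 and 9.99 and then 8.73, 8.27 and 8.64 and fell by 1.33 (SE 0.10). Treated and untreated arrays were apart by 1.27 and 0.92. Sema6d rose by 0.81, Epha2 by 0.75, and Robo2, a receptor for Slit ligands, fell by 0.95. Other large rises were Lratd1 (1.61, SE 0.081), Kif26b, a kinesin-like protein (1.54, SE 0.074), and Boc, a surface protein of myoblasts and a Hedgehog coreceptor (1.45, SE 0.12), which went from 8.87, 8.73 and 8.98 to 10.51, 9.96 and 10.46.

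Among genes of differentiated muscle, the acetylcholine receptor of fetal muscle was lower. All 4 of its subunit genes fell, and Chrne, the adult subunit, was not called. Chrnd, the δ subunit, read 10.62, 10.55 and 10.72 untreated and 8.71, 8.71 and 8.72 with BMP4 and fell by 1.92 (SE 0.054, 3.77-fold, adjusted p = 9.79e-17). Chrng, the γ subunit of the fetal receptor, read 10.78, 10.76 and 10.92 and then 9.44, 9.58 and 9.51 and fell by 1.31 (SE 0.061, adjusted p = 8.33e-13). The treated arrays of both genes lay below all untreated ones, by 1.82 and 1.17. Chrnb1 fell by 0.66 (SE 0.051), and Chrna1 by 0.42 (SE 0.074, adjusted p = 0.000329), with an adjusted p of 0.0514 on the 6 arrays alone. In such bulk RNA fewer cells with a transcript and less of it per cell cannot be told apart. The 250 bases before the start of Chrng are shown because this gene is a known direct target of myogenic basic helix-loop-helix factors, whose partners the Id proteins occupy. They hold the E-box CANNTG 3 times, marked in capitals, beginning 155, 132 and 75 bases before the start. CANNTG was in 62.1% of all promoters, 58.7% of the risen and 63.1% of the fallen.

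Chrng (chr1:87205561-87205810, plus strand): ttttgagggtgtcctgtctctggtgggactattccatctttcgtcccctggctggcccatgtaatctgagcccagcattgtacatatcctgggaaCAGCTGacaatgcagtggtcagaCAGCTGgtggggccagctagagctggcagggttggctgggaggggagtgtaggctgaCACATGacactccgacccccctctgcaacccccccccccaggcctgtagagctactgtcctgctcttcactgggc

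Of 29 genes of the MuSK and agrin pathway and the synapse 4 fell and 25 were not called, with a median of -0.03, and 2 rose with a block for the 4 arrays. Lrp4, the agrin receptor that activates MuSK, read 10.65, 10.65 and 10.69 and then 9.74, 9.85 and 9.75 and fell by 0.88 (SE 0.057, adjusted p = 1.04e-10). The untreated arrays of Lrp4 lay within 0.04 of each other and all stood above the treated ones. Nes, the filament protein nestin, fell by 0.62, Erbb3, a neuregulin receptor, by 0.37 and the laminin chain Lama5 by 0.36.

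Myogenic regulators fell in 6 of 26 cases and rose in 1. Myod1, the master regulator of the muscle lineage, read 11.54, 11.43 and 11.53 and then 10.93, 10.86 and 10.94 and fell by 0.59 (SE 0.053, adjusted p = 2.62e-08). Myog, myogenin, which drives terminal differentiation, read 10.03, 10.00 and 9.84 and then 9.27, 9.18 and 9.40 and fell by 0.67 (SE 0.066, adjusted p = 1.11e-07). Mef2a fell by 0.62 and Six4 by 0.53, all with groups that did not overlap. Myf5 changed by 0.03 (SE 0.081, adjusted p = 0.923) and its arrays overlapped. Twist2, an inhibitor of Myod1 activity, rose by 0.48 (SE 0.074). Of the 10 myoblast markers 5 fell and 5 were not called, and the falls included Itga7, the laminin receptor of muscle, by 0.50 and Megf10, a receptor of satellite cells, by 0.42.

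The muscle microRNA gene Mir206, which MyoD-family factors activate and which promotes differentiation, read 7.85, 7.76 and 7.82 on the untreated arrays and 6.20, 6.06 and 5.70 with BMP4. The treated arrays were at background, so the fall was at least 2.17-fold. The fitted change was -1.82 (SE 0.15, adjusted p = 4.83e-09). The probe set measures transcript from the locus and not the mature microRNA, whose 2 arms in RefSeq (GRCm38.p6, chromosome 1, plus strand) are printed with the seed, bases 2 to 8, in capitals.

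mmu-miR-206-3p (chr1:20679055-20679076): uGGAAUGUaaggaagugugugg

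mmu-miR-206-5p (chr1:20679017-20679039): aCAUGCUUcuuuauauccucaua

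Fusion and membrane genes of myoblasts fell in 9 of 25 cases and rose in 2. Cdh15, M-cadherin, read 11.24, 11.28 and 11.38 and then 9.87, 9.98 and 10.00 and fell by 1.35 (SE 0.065, adjusted p = 1.31e-12). The 2 fusion proteins Mymx and Mymk fell by 0.99 (SE 0.091) and 0.54 (SE 0.059), and the adhesion molecule Vcam1 by 0.57. Adam12, a metalloprotease of fusing and regenerating muscle, rose from 7.89, 7.88 and 7.88 to 9.03, 8.95 and 9.01, by 1.11 (SE 0.060, adjusted p = 8.77e-12). It and Boc were the 2 rises of the list.

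Of 59 sarcomere genes 18 fell and 2 rose, with a median of -0.17, and on the 6 arrays alone 9 fell. Klhl41, a regulator of thin filament assembly, read 8.53, 8.65 and 8.62 and then 7.80, 7.84 and 7.94 and fell by 0.74 (SE 0.064). Actn3, the fast-fibre actinin, fell by 0.68, nebulin, Neb, by 0.47 and the fast troponin Tnnt3 by 0.46. Myoz1, a Z-disc protein, was low on the untreated arrays (6.49, 6.62 and 6.85) and rose by 0.52 (SE 0.10). In excitation-contraction coupling and calcium handling 6 of 29 genes fell and 2 rose (1 on the 6 arrays alone, 4 without the 4 arrays), with the calcium pump Atp2a1 down by 0.71 and Bin1, which shapes T-tubules, by 0.67. Of 15 dystrophin complex genes 4 fell and 1 rose, and on the 6 arrays alone 2 fell. The falls included the syntrophin Sntb1, by 0.86 (SE 0.060), and the dystrobrevin Dtna, by 0.68. Alpk2, an alpha-kinase of heart and muscle, fell by 0.54 (SE 0.099, adjusted p = 0.000536), with an adjusted p of 0.0521 on the 6 arrays alone.

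**Figure D3:**
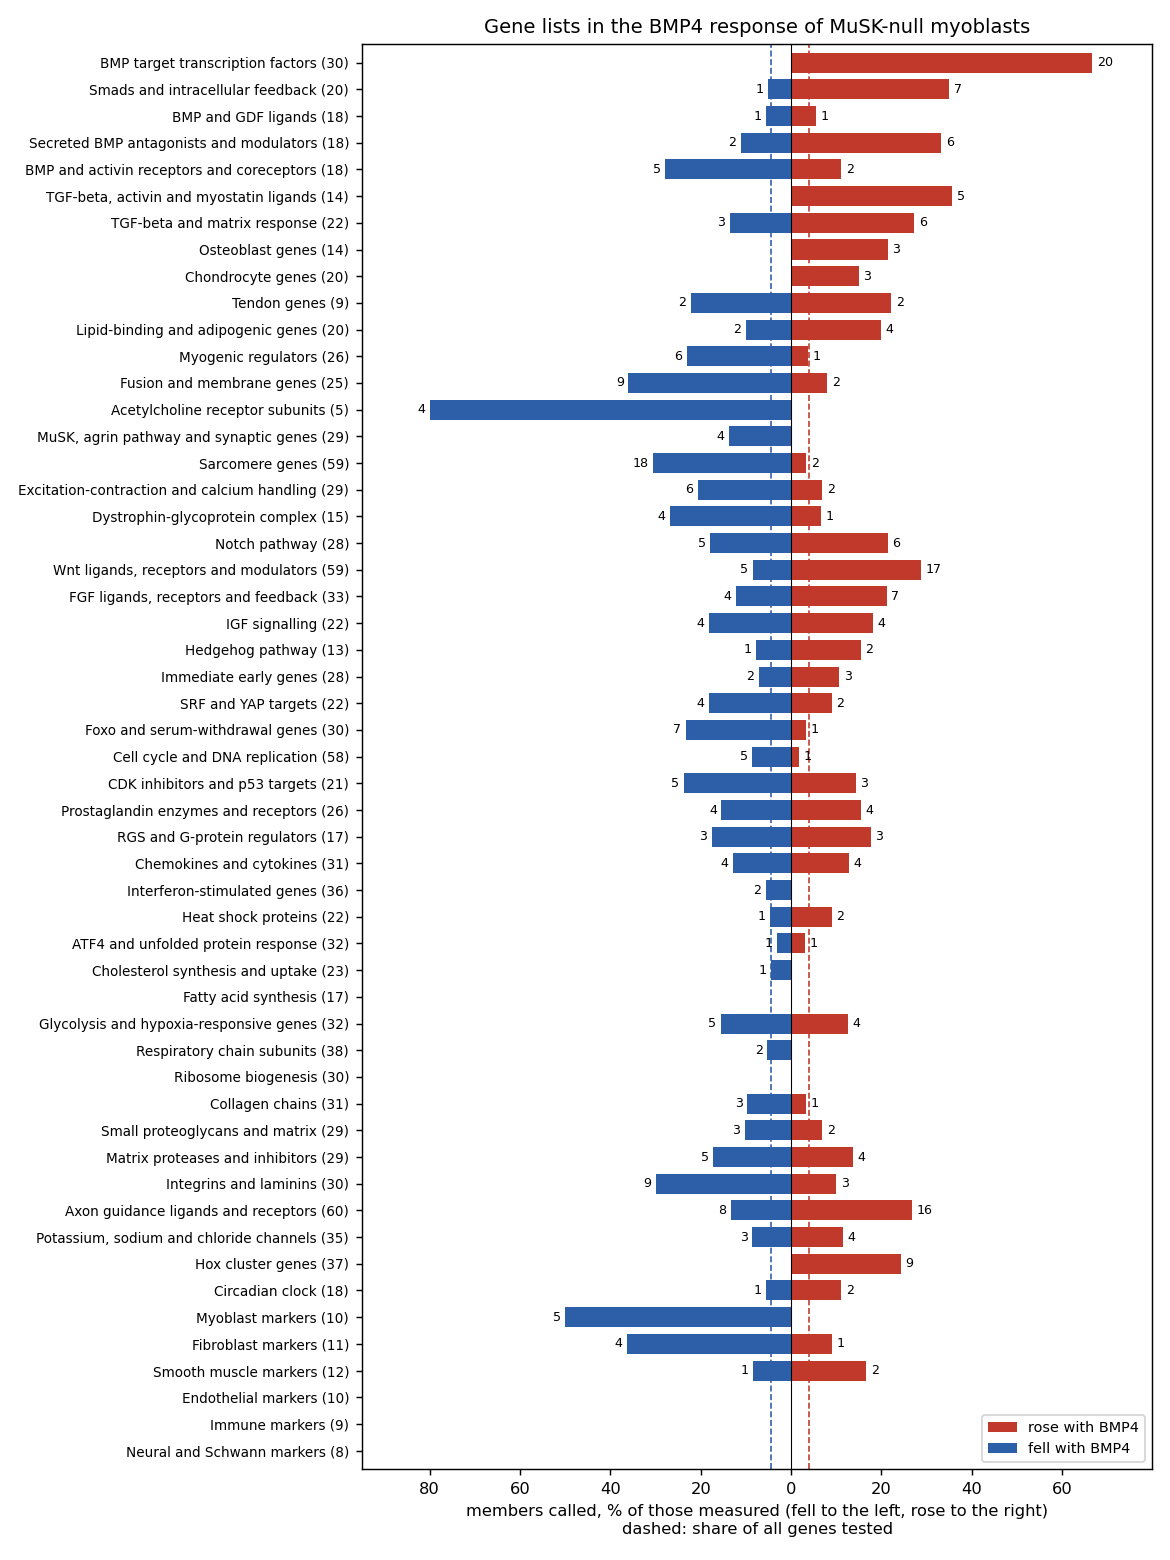
Share of the measured members of 53 gene lists (number measured in brackets) that rose (right, red) or fell (left, blue) with BMP4 in MuSK-null myoblasts, in %, with the number called beside each bar and the shares of all genes, 3.89% and 4.52%, dashed. BMP target transcription factors extend farthest to the right (20 of 30) and acetylcholine receptor subunits farthest to the left (4 of 5). The lists were written with earlier results of these data known.

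The 2 largest falls were outside the muscle lists. Adcyap1r1, the receptor for the neuropeptide PACAP, read 11.02, 10.87 and 11.01 untreated and 8.57, 8.66 and 8.53 with BMP4 and fell by 2.38 (SE 0.11, 5.2-fold, adjusted p = 7.95e-13). Cpa1, a carboxypeptidase known from the pancreas, read 10.10, 10.26 and 10.38 and then 8.04, 7.97 and 8.38 and fell by 2.12 (SE 0.13). The nearest arrays of the groups were 2.21 and 1.73 apart. Stanniocalcin 1, Stc1, read 10.13, 9.80 and 10.21 and then 8.23, 8.02 and 8.28 and fell by 1.87 (SE 0.12), whereas Stc2, its homologue, rose from 8.52, 8.80 and 8.75 to 10.01, 10.14 and 10.18, by 1.42 (SE 0.087). Stanniocalcins inhibit the protease that frees insulin-like growth factors from their binding proteins. Igfbp5, such a binding protein, read 11.98, 11.92 and 12.12 and then 10.61, 10.30 and 10.58 and fell by 1.51 (SE 0.081, adjusted p = 7.31e-12), and the IGF list held 4 rises and 4 falls of 22. Ndst4, a heparan sulfate enzyme, fell by 1.86 and Fam83b by 1.52, both to background, at least 3.24-fold and 1.41-fold lower. Ccdc141 fell by 1.48, Tm6sf1 by 1.40 and Srgn, the proteoglycan serglycin, by 1.32.

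Prostaglandin genes went both ways, with 4 rises and 4 falls of 26. Ptgs2, cyclooxygenase 2, which starts prostaglandin synthesis, read 12.13, 12.14 and 12.28 and then 13.02, 12.83 and 12.95, a rise of 0.75 (SE 0.083). Hpgd, the dehydrogenase that inactivates prostaglandins, read 10.29, 10.22 and 10.23 and then 8.61, 8.41 and 8.49 and fell by 1.74 (SE 0.081, 3.35-fold, adjusted p = 8.33e-13). The receptor Ptger4 rose by 0.64, and Ptgis, prostacyclin synthase, fell by 0.56. Regulators of G-protein signalling included Rgs4, up by 0.63 (SE 0.090) from 6.78, 6.96 and 6.95 to 7.45, 7.47 and 7.67, and Rgs16, down by 0.87. Chemokine and cytokine genes had 4 rises and 4 falls of 31. Il15, a cytokine made by muscle, was at background untreated (6.69, 6.51 and 6.65) and above it with BMP4 (7.64, 7.74 and 7.83), at least 2.09-fold higher. Ackr3, a scavenging chemokine receptor, rose by 0.78 and the chemokine Cxcl14 by 0.74, while another chemokine, Ccl2, fell by 0.72 and the receptor Cxcr4 by 0.42 (SE 0.075).

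Integrins and laminins fell in 9 of 30 cases and rose in 3 (1 on the 6 arrays alone), with Itga3 down by 0.82 and Itgb3 up by 0.88. Adamts9, a matrix protease, rose from 8.86, 9.12 and 8.72 to 10.34, 10.29 and 10.37, by 1.43 (SE 0.10), and Adamts5, another matrix protease, fell from 12.64, 12.59 and 12.56 to 11.57, 11.67 and 11.59, by 0.99 (SE 0.062). Mmp11 rose by 0.84 and decorin, Dcn, fell by 0.90. Of 31 collagen chains 1 rose (3.23%, Col8a2, by 0.58) and 3 fell (9.68%), against 3.89% and 4.52% over all genes. The 6 arrays alone called none of these falls, and 1 fell without the 4 arrays or with the replicate block. The chloride transporter Clcn5 fell by 0.93. Hox genes rose in 9 of 37 cases, with none called lower and a median of 0.21, led by Hoxc11 (0.70) and Hoxc13 (0.69). On the 6 arrays alone 7 of them rose, and 14 with a block for the 4 arrays. In the fibroblast marker list 1 of 11 rose (Pdgfra, by 0.58) and 4 fell, among them Dpt by 0.78 and Cd34 by 0.66. Of 12 smooth muscle markers 2 rose (Cspg4 by 0.55 and Myocd by 0.48) and 1, Synpo2, fell by 0.70. The part of a shift between cell types in these changes was not tested.

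Genes that report on serum and growth were followed because deprivation differs or may differ between the groups. Of 30 Foxo and serum-withdrawal genes 1 rose and 7 fell, and 12 fell with a block for the 4 arrays apart and 4 on the 6 arrays alone. Fbxo32, the atrophy ubiquitin ligase atrogin-1, read 9.65, 9.80 and 9.80 and then 8.78, 8.87 and 8.75 and fell by 0.95 (SE 0.081). Bcl6 fell by 0.75, Txnip by 0.65 and Gadd45a by 0.66, and Pdk4 rose by 0.54. Immediate early genes, which serum induces, showed 3 rises and 2 falls of 28, with Junb up by 0.72, Egr1 down by 0.53 and Jun down by 0.31. Cell cycle and replication genes were mostly uncalled, with 1 rise (Rrm2, by 0.48) and 5 falls of 58, among them Rb1 by 0.65, E2f8 by 0.50 and Cdk6 by 0.46. Cdkn1c, a cell cycle inhibitor, fell by 0.73. Among 17 fatty acid synthesis and 30 ribosome biogenesis genes limma called none, with 3 and 1 higher at an unadjusted p under 0.05. Of 23 sterol synthesis and uptake genes 1 fell (4.35%), and of 38 respiratory chain genes 2 fell (5.26%), near the 4.52% of all genes. On the 6 arrays alone none and 1 fell. Of 32 ATF4 and unfolded protein response genes 1 rose, the cystine transporter Slc7a11 by 0.97, and 1 fell. Interferon-γ was in the growth medium, and of 36 interferon-stimulated genes 2 fell, including Ifih1 by 0.66, and 34 were not called. Without the 4 arrays, or on the 6 arrays alone, 1 of these fell. Whether the deprivation medium held interferon-γ is not given in the labels.

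The next question was where MuSK-null myoblasts answered BMP4 differently from wild-type myoblasts. The difference of the 2 responses, tested as an interaction, was called for 477 genes, 2.39% of those tested, with 233 higher (1.17%) and 244 lower (1.22%) in MuSK-null cells. With replicates as a block on the arrays compared 231 were called, 112 higher and 119 lower. With arrays centred on the median of all rows 36.7% of calls were higher, against 48.8% here. Wild-type myoblasts had 2186 called genes (11.0%), 1038 higher (5.21%) and 1148 lower (5.76%). Of the 776 rises 462 (59.5%) also rose there, 44.5% of the wild-type list, and 13 fell. Of the 902 falls 574 (63.6%) also fell, 50.0% of the wild-type list, and 16 rose. These 2 responses share no arrays.

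Among the 30 BMP target factors the response was lower than in wild type for 11 and higher for 4. Id3 rose by 0.74 against 2.35 in wild type, a difference of -1.60 (SE 0.13, adjusted p = 5.08e-08). Id1 rose by 0.99 against 2.44 (difference -1.45, SE 0.10) and Id2 by 0.71 against 1.58 (difference -0.87, SE 0.11). The untreated levels of these 3 genes were higher without MuSK, with Id1 at 10.62 ± 0.082 (SD, n = 3) against 8.66 ± 0.043 and Id3 at 10.98 ± 0.033 against 9.32 ± 0.11. With BMP4 the levels of Id1 and Id3 lay closer to each other than untreated. Id1 was still higher without MuSK, at 11.61 ± 0.039 against 11.10 ± 0.044, and Id3 was at 11.72 ± 0.092 against 11.67 ± 0.087. Smad6 was also higher untreated without MuSK (9.79 ± 0.086 against 8.76 ± 0.062), and it stayed higher with BMP4 (11.78 ± 0.14 against 11.05 ± 0.068). Msx2 (0.97 against 2.05) also rose less. Sp7 went from 7.71 ± 0.070 to 11.11 ± 0.23 in wild type, and in MuSK-null cells it reached 8.21 ± 0.21 from background. Its fitted difference of responses (-1.67, adjusted p = 9.59e-06) sets no direction, since the MuSK-null rise is known only as at least 1.57 against 3.40. Rgs4 rose by 0.63 here and from background, by at least 2.34, in wild type. Smaller rises here were also called for Ptgs2 (0.75 against 2.38) and Avpr1a, a vasopressin receptor (0.47 against 2.00). Atoh8 (0.90 against 1.59) and the antagonist Nog (0.31 against 1.33) rose less as well. For 4 of the largest rises no difference was called, and this comparison is not given here for every large rise. For Fabp7 the difference was 0.25 (SE 0.12, adjusted p = 0.445), for Smad6 -0.30 (SE 0.11, adjusted p = 0.236), for Smad9 0.16 (SE 0.11) and for Bambi -0.14 (SE 0.10).

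Other genes had higher fitted responses in MuSK-null myoblasts. Lin7a rose by 2.31 against a fitted 0.41 in wild type, a difference of 1.90 (SE 0.17, adjusted p = 4.7e-07). It was at background in untreated wild-type cells, so its rise there is known only as at least 0.11 and the difference sets no direction. The untreated level of Lin7a was 7.09 ± 0.11 against 6.34 ± 0.15, and with BMP4 it was 9.40 ± 0.35 against 6.75 ± 0.22. Tbx1 (1.44 against 0.23), Adam12 (1.11 against -0.01), Snai1 (0.88 against 0.08) and Pparg (0.80 against 0.18) were uncalled in wild type and higher in the difference. Il15 rose from background here, by at least 1.06, against 0.10 in wild type, so the bound also lies above the wild-type change. Kcnh5, a potassium channel gene, rose from background here, at least 1.09-fold, and was at background in both wild-type groups, so no difference of responses can be given. Tgm2, a transglutaminase, and Lrrc32, which anchors latent TGF-β, fell in wild type (-1.48 and -1.13) and were not called here (0.19 and 0.11). Falls were deeper for Adcyap1r1 (-2.38 against -0.14, difference -2.24, adjusted p = 6.79e-09), Cpa1 (-2.12 against -0.74), Igfbp5 (-1.51 against -0.33), Chrnd (-1.92 against -0.90), Chrng (-1.31 against -0.76) and Lrp4 (-0.88 against -0.29). The untreated level of Adcyap1r1 was 10.97 ± 0.083 against 7.57 ± 0.14 in wild type. A few genes moved in opposite directions, each called in both lines. Hpgd fell from 10.25 ± 0.035 to 8.51 ± 0.10 without MuSK and rose from 8.73 ± 0.056 to 9.34 ± 0.14 in wild type, a difference of -2.35 (SE 0.12, adjusted p = 2.01e-11), and Cxcr4 (-0.42 and 0.66), Spry2 (-0.59 and 0.23), Egr1 (-0.53 and 0.39) and Jun (-0.31 and 0.21) did likewise. Adgrg1, an adhesion G-protein-coupled receptor, went the other way, with changes of 0.51 here and -0.71 in wild type.

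**Figure D4:**
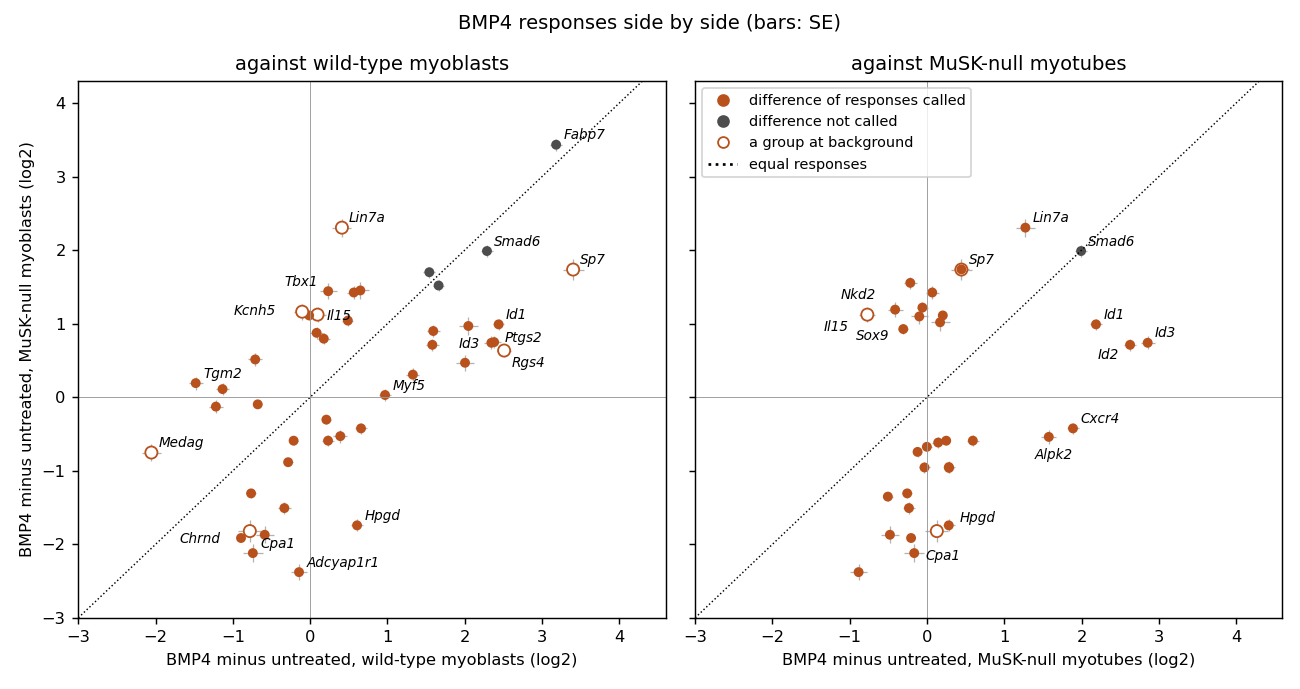
BMP4 response in MuSK-null myoblasts (log2, vertical) against that in wild-type myoblasts (left) and in MuSK-null myotubes (right, log2, horizontal) for genes named in the text, with SE bars, orange where the difference of responses was called and the dotted line marking equal responses. Open circles mark genes with a group at background, whose position is a fitted value and not a measured one (in the right panel Sp7 and Fgfr2 coincide). The Id genes lie below the dotted line in both panels, while Smad6 lies near it.

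MuSK-null myotubes answered the same dose for the same time with 2245 called genes (11.3%), 1068 higher (5.36%) and 1177 lower (5.9%). Their treatment had no serum deprivation, so stage and deprivation cannot be told apart in what follows. Of the 776 myoblast rises 350 (45.1%) also rose in myotubes, 32.8% of the myotube list, and 41 fell. Of the 902 falls 360 (39.9%) also fell, 30.6% of the myotube list, and 63 rose. The difference of the responses was called for 1228 genes (6.16%), 583 higher (2.92%) and 645 lower (3.24%) in myoblasts. With arrays centred on the median of the genes tested 36.7% of 1301 calls were higher, and with all rows 35.6% of 1160, against 47.5% here.

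For the 30 BMP target factors the response was higher in myoblasts than in myotubes in 5 and lower in 6. Id1, Id2 and Id3 rose less in myoblasts than in myotubes, Id3 by 0.74 against 2.86 (difference -2.12, SE 0.13, adjusted p = 2.79e-10), Id2 by 0.71 against 2.63 and Id1 by 0.99 against 2.19. Smad6 rose by 1.99 in myoblasts and 1.99 in myotubes, a difference of -0.01 (SE 0.11). Sp7 started from background in both and reached 8.21 ± 0.21 in myoblasts and 6.80 ± 0.17 in myotubes, so its rises are known only as at least 1.57 and at least 0.19 and their order is not set. Alpl (1.10 against -0.10) had a higher response in myoblasts, and so did Foxq1 (1.56 against -0.22), Nkd2 (1.19 against -0.41), Wnt4 (1.22 against -0.06) and Sox9 (0.93 against -0.31). Several muscle genes had lower responses in myoblasts. Chrnd changed by -1.92 against -0.21 (difference -1.71, SE 0.076, adjusted p = 2.52e-12), Mef2a by -0.62 against 0.14 and Cdh15 by -1.35 against -0.51. Mir206 fell to background in myoblasts, a change of -1.11 or lower, and changed by 0.13 in myotubes. Of the 5 receptor subunits 4 had a lower response in myoblasts. Cxcr4 fell by 0.42 in myoblasts and rose by 1.89 in myotubes, and Alpk2 fell by 0.54 and rose by 1.58.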

How the data were processed

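RNA was hybridised to 24 Affymetrix whole-transcript arrays, 1 per sample, in 8 groups of 3. The authors deposited normalised log2 values of 35556 probe sets. Expression Console and Partek were used, per the submitters' processing notes, and no label names the background correction or summary method. Deposited values ran from 2.50 to 15.03, with array medians between 7.38 and 7.50, and were used unchanged. The number of arrays limits the precision.

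Of the probe sets 21789 named 1 gene, 1621 several and 12146 none in GEO's platform annotation, and 21698 of the first matched RefSeq by gene ID. For 999 genes with several probe sets the one with the highest mean was kept. In 103 of them any probe set was called, and in 39 all were called the same way. Means per group were fitted with limma 3.58.1 (R 4.3.3, 16 residual degrees of freedom, tested on simulated data), and differences between responses were interaction contrasts. Background was the mean over a group's arrays of the 95th percentile of receptor rows. A gene at background in 1 group has its change given as at least N-fold, the higher group's mean over the higher of background and signal on each array of the other.

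Genes were named by rule: the 15 largest rises and falls that did not overlap and were above background in the higher group, the 4 largest called members per list and direction, every member of the pathway lists, the 8 largest differences per direction, the cell type markers, and genes listed by name. The lists and the part of the series described were chosen with earlier results of these data known. The replicate numbers of treated and untreated MuSK-null myoblasts were checked for pairing: same-numbered arrays deviated together over genes with r of 0.203, 0.46 and 0.116, while untreated replicate 1 correlated at 0.228 with treated replicate 3. Pairing and membership of the 4 arrays apart cannot be told apart. Alternatives were other fits, scalings and filters, the replicate block and leaving out each array. The 3 alternatives for the 4 arrays apart and for centring on all rows were added after seeing the data. Promoters and microRNAs were read from RefSeq tables (GRCm38.p6).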

Additional observations from a re-analysis of the deposited data

Results flagged for a closer look

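The BMP4 response of MuSK-null myoblasts differed from that of wild-type myoblasts by an interaction test in limma (adjusted p under 0.05) for 41 named genes, in log2 units, MuSK-null minus wild type. Genotype and line cannot be told apart, and the causes were not tested. In 7 of them a group was at background, so the value is a fitted one: the direction holds within the bounds for Mir206, Il15 and Rgs4 and is not set for Sp7, Lin7a, Kcnh5 and Medag. Among BMP targets and pathway genes the response differed for Id1 by -1.45, Id2 by -0.87, Id3 by -1.60, Msx2 by -1.08, Atoh8 by -0.69, Nog by -1.02, Snai1 by 0.79, Smad3 by 0.58, Fst by 0.55 and Rgma by 1.09. Among muscle genes it differed for Chrnd by -1.02, Chrng by -0.54, Mir206 by -1.04, Myod1 by -0.38, Myf5 by -0.94, Lrp4 by -0.60, Boc by 0.80 and Adam12 by 1.12. Among genes of other mesenchymal fates it differed for Sp7 by -1.67, Pparg by 0.62 and Medag by 1.30. Among signalling genes and transcription factors it differed for Lin7a by 1.90, Tbx1 by 1.21, Spry2 by -0.82, Jun by -0.51 and Egr1 by -0.92. The remaining differences were Hpgd by -2.35, Il15 by 1.03, Cxcr4 by -1.08, Cpa1 by -1.38, Adcyap1r1 by -2.24, Stc2 by 0.86, Stc1 by -1.28, Igfbp5 by -1.17, Rgs4 by -1.88, Ptgs2 by -1.63, Kcnh5 by 1.27, Adgrg1 by 1.23, Tgm2 by 1.67, Avpr1a by -1.54 and Lrrc32 by 1.24. Smad3, Rgma and Myf5 were not called in the MuSK-null response (-0.10, -0.13 and 0.03). Their changes in wild type were -0.68, -1.22 and 0.97.

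Against MuSK-null myotubes the response of myoblasts differed for 34 named genes by the same kind of test, myoblasts minus myotubes. Stage, temperature and serum deprivation cannot be told apart here. Of 3 with a group at background the direction holds within the bounds for Mir206 and Il15 and is not set for Sp7. Among BMP targets it differed for Id1 by -1.20, Id2 by -1.92, Id3 by -2.12 and Foxq1 by 1.77. Among muscle genes it differed for Chrnd by -1.71, Chrng by -1.05, Mir206 by -1.95, Myod1 by -0.84, Myog by -0.67, Cdh15 by -0.85, Mef2a by -0.76, Klhl41 by -0.62, Alpk2 by -2.12 and Adam12 by 0.91. Among genes of other mesenchymal fates it differed for Sp7 by 1.29, Alpl by 1.20, Col10a1 by 0.85 and Sox9 by 1.23. Among signalling genes it differed for Lin7a by 1.03, Nkd2 by 1.60, Wnt4 by 1.28, Fgfr2 by 1.29, Spry2 by -1.18, Notch3 by -0.92 and Dll1 by -1.25. The response of the ubiquitin ligase gene Fbxo32 differed by -1.23. The remaining differences were Hpgd by -2.02, Il15 by 1.90, Cxcr4 by -2.31, Cpa1 by -1.95, Adcyap1r1 by -1.49, Stc2 by 1.36, Stc1 by -1.39 and Igfbp5 by -1.27. Groups of 3 arrays are too small for a test of single outlying arrays.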

How the results depend on the processing

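Of 178 named genes called in the BMP4 response 123 were called under every alternative, and most losses came from the 1.5-fold limit, which removes small changes by construction. Of 41 genotype differences 35 and of 34 stage differences 34 were called throughout. Named genes were chosen partly for large changes in these data, so such counts do not speak for all genes. Over all genes the replicate block on the arrays compared kept 222 of the 477 genotype calls and 834 of the 1228 stage calls. In the response it kept 1257 of 1678. The replicate block gave 1469 calls in the response, 359 in the genotype difference and 1054 in the stage difference. Fitted on the 6 arrays alone, where fewer arrays inform the spread, 505 genes rose. At the 1.5-fold limit 418 genes were called in the response (187 higher, 231 lower), 236 in the genotype difference (121 higher, 115 lower) and 559 in the stage difference (263 higher, 296 lower). The replicate block on the arrays compared gave 231 genotype differences, 112 higher and 119 lower, without Myod1 (adjusted p = 0.106), Fst (0.0555) and, without the block, Boc (0.061). In the MuSK-null response this block gave an adjusted p of 0.13 for Nog, and it changed no other call of a named gene. Without the 4 arrays apart 352 genotype differences were called, 168 higher and 184 lower, and 1222 stage differences, 592 higher and 630 lower. A block for the 4 arrays apart gave 745 genotype differences, 348 higher and 397 lower, and 2201 calls in the response. It leaves the changes as they are, so it is no separate support. Leaving out each array in turn gave 1332 to 1655 calls in the response (545 to 812 higher, 712 to 843 lower), 371 to 449 in the genotype difference (174 to 227 higher, 191 to 239 lower) and 1004 to 1214 in the stage difference (452 to 597 higher, 516 to 654 lower). Tgm2 was called without treated replicate 3 (adjusted p = 0.046). The uncalled change of Myf5 (0.03) reversed to -0.012 with centring on all rows, and with each array left out in turn it ran from -0.043 to 0.1, below 0 without untreated replicate 2 and without treated replicate 1 (-0.026). Signals near background limit what dim genes can show.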

Other observations

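In other lists most genes were not called, and single members changed with BMP4 in MuSK-null myoblasts. Over all genes tested 3.89% rose and 4.52% fell, against which the counts are to be read. In the Hedgehog pathway 2 of 13 genes rose (15.4%) and 1 fell (7.69%): the receptor Ptch1, itself a target of the pathway, rose by 0.55 (SE 0.079) beside Boc, and Gas1, another coreceptor, fell by 0.58 (SE 0.080). Among 22 targets of SRF and YAP 2 rose and 4 fell, with Ccn1 up by 0.40 beside Ccn2, and with Fhl2 down by 0.62 (SE 0.084) and Ankrd1 down by 0.55 (SE 0.076), both proteins of the stretched sarcomere. Among 21 inhibitors of cyclin-dependent kinases and p53 targets 3 rose and 5 fell (1 rose on the 6 arrays alone or with arrays centred on all rows, 5 with a block for the 4 arrays apart), with the death receptor Fas up by 0.41 and the kinase Plk2 and the receptor Eda2r down by 0.64 and 0.53. Of 32 glycolytic and hypoxia-responsive genes 4 rose and 5 fell (1 and 3 on the 6 arrays alone), among them the growth factor Vegfa, up by 0.38, and Ndrg1 and adrenomedullin, Adm, which fell by 0.67 and 0.60. Among 29 small proteoglycans and matrix genes 2 rose (6.9%, and 4 genes without the 4 arrays) and 3 fell, including Prelp, up by 0.53, and Efemp1, down by 0.47. Of 35 ion channel genes 4 rose and 3 fell (1 rose on the 6 arrays alone or with arrays centred on all rows), led upwards by the potassium channel subunit Kcnmb4 (0.55, SE 0.088). Of 18 clock genes 2 rose and 1 fell (5.56%), on the 6 arrays alone 1 and none, and Nfil3, a repressor of the clock, rose by 0.54 (SE 0.086).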
